A study of Mus musculus with 12 samples.

Results

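The switch that drives an oocyte into meiotic division is built from a small set of proteins, and the transcripts of 10 of its genes were examined here: the B-type cyclins Ccnb1, Ccnb2 and Ccnb3, the kinase Cdk1, the phosphatases Cdc25a, Cdc25b and Cdc25c, and the inhibitory kinases Wee1, Wee2 and Pkmyt1. They were chosen by name, as the rows of these genes among the 23230 genes of the expression table, and all 10 were among the 11502 genes that reached 1 FPKM in at least 1 library. Oocytes of WT and Zar1/2-null females were sequenced at 3 stages: growing oocytes of 13.5-day-old females by the sample labels (the methods give a younger age), fully grown oocytes with an intact germinal vesicle (GV) from 21-day-old females 44 h after PMSG, and ovulated oocytes, labelled MII, 16 h after hCG. The mice were C57BL6/ICR hybrids, and the Zar1/2-null females carried CRISPR/Cas9 deletions early in the coding sequence of both Zar1 and Zar2 in all of their cells, so that surrounding ovarian cells lacked the genes as well. Each of the 6 groups had 2 libraries of 10 oocytes. Neither the labels nor the methods say that ovulated oocytes were selected for a polar body, or that the replicates came from different animals, so p-values measure the spread between these libraries. The study describes ovulated Zar1/2-null oocytes as stopped within the first meiotic division, without an MII spindle, so here MII is only the name of the ovulated group.

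CDK1 bound to cyclin B phosphorylates the proteins that dissolve the nuclear envelope and build the spindle. In a GV oocyte the complex is held inactive by phosphate groups that WEE1, the oocyte form WEE2 (also called WEE1B) and the membrane-bound kinase PKMYT1 place on CDK1, and CDC25 phosphatases remove them when meiosis resumes. Mouse oocytes make no new mRNA from then until after fertilization. They live on stored transcripts, some of which are dormant until their poly(A) tails are extended through a cytoplasmic polyadenylation element, a short U-rich motif near the 3′ end that is bound by CPEB1. ZAR1 and ZAR2 are oocyte RNA-binding proteins.

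The values were FPKM multiplied by the authors with a factor from the ERCC spike-in, synthetic RNAs added to each lysate, that compares each library with WT growing oocytes, so that oocytes with less RNA have lower values. Both WT growing libraries had a factor of 1, so a difference in RNA between those 2 is not carried by the values. The recovered factors ran from 0.225 to 1, and the summed scaled FPKM ran from 121121 in a WT MII library to 638056 in a WT growing library. Because cDNA was primed with oligo-dT, loss of a transcript and shortening of its poly(A) tail cannot be told apart. The targeted genes were checked first. Zar2, listed as Zar1l, was at 13.2 to 20.9 FPKM in the Zar1/2-null growing and GV libraries against 504 to 644 FPKM in WT, whereas Zar1, whose deletion is small, was listed at 136 to 460 FPKM in the same Zar1/2-null libraries, so its level does not check the genotype. None of 10 oocyte markers was at 0 in any library. Summed granulosa and cumulus markers reached 4.91 to 31.8 FPKM, with Ptx3 at 0 in all libraries and Amh at 0 in 11 of 12. They were led by Cyp19a1, except in the Zar1/2-null growing libraries, where Nr5a2 led at 11.5 and 8.18 FPKM. Immune markers, nearly all of it Cd68, summed to 3.12 to 3.19 FPKM in Zar1/2-null growing libraries against 0.498 to 1.30 FPKM in WT growing libraries, while Ptprc and Lyz2 were each at 0 in 9 of 12 libraries. Granulosa and cumulus markers lay lower in Zar1/2-null growing oocytes (16.0 to 23.6 against 26.7 to 31.8 FPKM). So did epithelial markers, nearly all of it Cdh1 (18.4 to 20.1 against 28.3 to 30.2 FPKM), with Krt19 at 0 throughout. Without ERCC scaling the granulosa and cumulus sums overlapped (20.6 to 27.4 against 26.7 to 31.8 FPKM), and the epithelial sums did not (21.4 to 25.9 against 28.3 to 30.2 FPKM). The summed oocyte markers were higher in Zar1/2-null than in WT MII oocytes, at 8196 to 9785 against 4598 to 5604 FPKM. The part of these shifts in the differences between genotypes was not tested.

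In WT growing oocytes the kinase partner and its inhibitor were dominated by single family members. Ccnb1, the main mitotic and meiotic cyclin B, was at 1056 and 1073 FPKM. Wee2, the oocyte-enriched inhibitory kinase, was at 354 and 349 FPKM, and Ccnb2, a cyclin B that can stand in for cyclin B1 in oocytes, at 216 and 226 FPKM. Cdk1 followed at 88.5 and 89.6 FPKM and Ccnb3, a cyclin needed for anaphase of the first meiotic division, at 28.2 and 28.0 FPKM. These 5 levels were each apart from the next. The 3 Cdc25 genes lay close together between 13.8 and 17.3 FPKM, and Wee1 (7.56 and 7.95 FPKM) and Pkmyt1 (6.11 and 9.03 FPKM) were lowest and overlapped. The ranking Ccnb1, Wee2, Ccnb2 held by mean level in each of the 6 groups, although Wee2 and Ccnb2 overlapped in Zar1/2-null growing and Zar1/2-null GV oocytes. FPKM is corrected for transcript length, and comparisons of level between genes were made on that scale only.

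**Figure D1:**
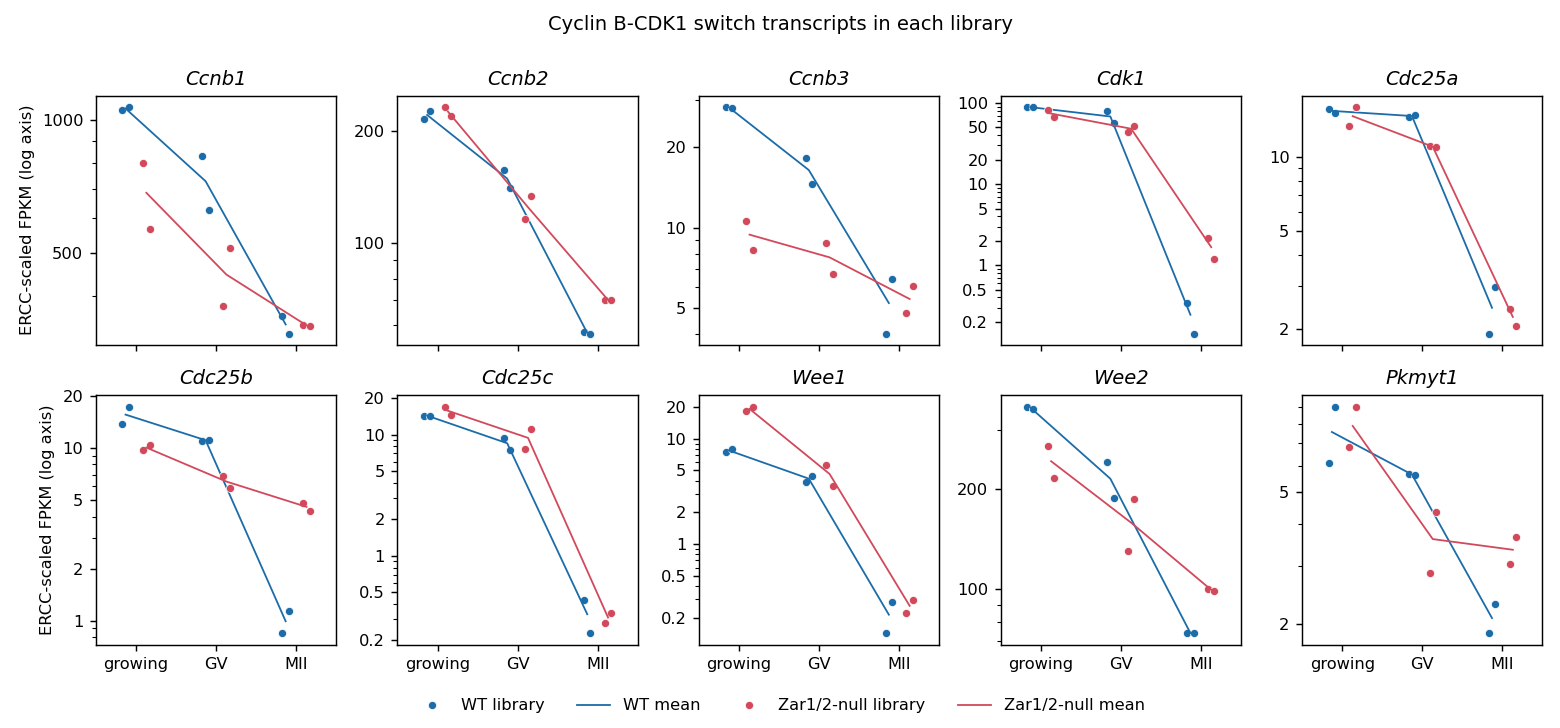
ERCC-scaled FPKM (log axis, separate for each gene) of the 10 switch genes in growing, GV and MII oocytes; each point is 1 library of 10 oocytes and each line joins the means of 2 libraries, WT in blue and Zar1/2-null in red. Cdc25b was at 0.845 and 1.14 FPKM in WT MII oocytes and at 4.77 and 4.33 FPKM in Zar1/2-null MII oocytes, and Wee1 at 18.2 and 20.2 FPKM in Zar1/2-null growing oocytes against 7.56 and 7.95 FPKM in WT.

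Zar1/2-null and WT oocytes were compared first during growth, to ask whether the stored transcripts differ before maturation begins. Wee1 was higher in Zar1/2-null growing oocytes, and Ccnb3, Ccnb1 and Cdc25b were lower, while the other 6 genes did not pass the test (limma on log2(FPKM + 1), adjusted p under 0.05). Of all genes tested, 35% were called in this comparison, 10.6% higher and 24.4% lower, so 4 of 10 (1 higher and 3 lower) is near the background. Over all genes the median log2 fold change was -0.16, and 0.08 without ERCC scaling. The median over the 10 genes was -0.17.

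Ccnb3 gave the largest difference among the 10 in growing oocytes on the ERCC scale, whereas without scaling and with median scaling that of Wee1 was larger. It was at 28.2 and 28.0 FPKM in WT and at 10.6 and 8.24 FPKM in Zar1/2-null libraries, and both Zar1/2-null libraries were far below both WT libraries. The mean fell to 33.5% of WT, with a log2 fold change of -1.49 ± 0.21 (SE, adjusted p = 0.000413), and without ERCC scaling it was -1.23 (adjusted p = 0.00307). Wee1 (chr7:117265864-117285626 in mm9), the kinase that holds CDK1 inactive in somatic cells, moved the other way, from 7.56 and 7.95 FPKM in WT to 18.2 and 20.2 FPKM in Zar1/2-null libraries. Its mean was 2.48-fold higher, a log2 fold change of 1.20 ± 0.17 (SE, adjusted p = 0.000413) and 1.48 without scaling (adjusted p = 0.00180). Both calls held when any single library was left out.

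Ccnb1 was at 802 and 568 FPKM in Zar1/2-null growing oocytes, below 1056 and 1073 FPKM in WT. The 2 Zar1/2-null libraries differed more from each other than the WT libraries did. The log2 fold change was -0.66 ± 0.21 (SE, adjusted p = 0.0330), and the call was lost without ERCC scaling (adjusted p = 0.0912) and without either WT growing library or Zar1/2-null growing replicate 2 (adjusted p up to 0.265). It was also lost without a filter on low values (adjusted p = 0.101) and with only the compared groups in the fit (adjusted p = 0.0651). Cdc25b, the CDC25 phosphatase that mouse oocytes need to resume meiosis, was at 9.71 and 10.3 FPKM against 13.8 and 17.3 FPKM. Its log2 fold change of -0.58 ± 0.15 (SE, adjusted p = 0.0122) was likewise lost without scaling (adjusted p = 0.244) and without WT growing replicate 2 or Zar1/2-null growing replicate 1 (adjusted p up to 0.106).

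Wee2, at 269 and 216 FPKM in Zar1/2-null growing oocytes against 354 and 349 FPKM in WT, lay below WT in both libraries but did not pass (adjusted p = 0.0521), and passed with averaged ERCC factors (adjusted p = 0.0106). Cdk1 was at 81.9 and 66.4 FPKM against 88.5 and 89.6 FPKM (adjusted p = 0.354). Ccnb2 (232 and 219 FPKM against 216 and 226 FPKM), Cdc25a (13.3 and 15.9 FPKM against 15.7 and 15.1 FPKM) and Pkmyt1 (6.81 and 8.98 FPKM against 6.11 and 9.03 FPKM) overlapped between genotypes. Cdc25c, the CDC25 of the classical mitotic switch, was at 17.1 and 14.5 FPKM against 14.3 and 14.4 FPKM (adjusted p = 0.635).

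In fully grown GV oocytes, which hold the stock of mRNA used during maturation, Ccnb1, Ccnb3 and Cdc25b were lower in Zar1/2-null libraries and no member was called higher. This is 3 of 10, against 43.4% of all genes tested (40.6% lower). The libraries of 8 members lay wholly below WT, as did those of 63.6% of all genes. The median log2 fold change was -0.46 over the 10 genes and -0.38 over all genes, and without ERCC scaling -0.02 and -0.03. All 3 calls were lost without scaling, so relative to the other mRNA of the oocyte no member was called at this stage. Of the 11502 genes, 827 were called higher and 1554 lower without scaling.

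Ccnb1 was at 829 and 626 FPKM in WT GV oocytes and at 379 and 514 FPKM in Zar1/2-null GV oocytes. The lowest WT library was above the highest Zar1/2-null library, but the replicates of each genotype were widely spaced. The log2 fold change was -0.71 ± 0.21 (SE, adjusted p = 0.0203; adjusted p = 0.274 without scaling), and the call was lost without replicate 1 of either genotype (adjusted p up to 0.169), without a filter on low values (0.0753) and with only the compared groups in the fit (0.0764). Ccnb3 was at 18.2 and 14.6 FPKM in WT and 8.77 and 6.71 FPKM in Zar1/2-null oocytes, a log2 fold change of -0.995 ± 0.215 (SE, adjusted p = 0.00379; 0.0977 without scaling). Cdc25b was at 10.9 and 11.2 FPKM in WT and 6.89 and 5.85 FPKM in Zar1/2-null oocytes, a log2 fold change of -0.71 ± 0.15 (SE, adjusted p = 0.00339; 0.273 without scaling).

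The other GV differences did not pass the test. Pkmyt1 came nearest, at 5.66 and 5.62 FPKM in WT and 2.85 and 4.36 FPKM in Zar1/2-null oocytes (adjusted p = 0.0543), and was called without Zar1/2-null GV replicate 2 (adjusted p = 0.0257). Wee2 was at 241 and 188 FPKM against 130 and 187 FPKM (adjusted p = 0.0843), and Cdk1 at 79.5 and 57.1 FPKM against 44.2 and 52.2 FPKM (adjusted p = 0.0890). With averaged ERCC factors both Wee2 and Cdk1 were called lower (adjusted p = 0.0207 and 0.0279). Cdc25a was at 14.5 and 14.8 FPKM against 11.0 and 11.0 FPKM (adjusted p = 0.0776). Ccnb2 was at 157 and 141 FPKM against 116 and 133 FPKM (adjusted p = 0.157). The Zar1/2-null libraries of these 5 genes were all below WT. Cdc25c and Wee1 overlapped between genotypes, and Wee1, which was higher in growing Zar1/2-null oocytes, was at 3.92 and 4.44 FPKM in WT GV and 5.68 and 3.58 FPKM in Zar1/2-null GV oocytes.

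In ovulated oocytes Cdc25b and Cdk1 were higher in Zar1/2-null libraries and none of the 10 was called lower. Genotype and the meiotic stage the oocytes had reached cannot be told apart in this comparison. Of all genes tested, 31.8% were called at this stage and 21.5% were called higher. The medians over the 10 genes and over all genes were 0.18 and 0.06. Both calls held without ERCC scaling, with median scaling and with any single library left out.

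Cdc25b (chr2:131012685-131024233 in mm9) was at 0.845 and 1.14 FPKM in WT MII oocytes and at 4.77 and 4.33 FPKM in Zar1/2-null MII oocytes. The Zar1/2-null libraries agreed closely and both lay well above WT. The mean was 4.59-fold higher, with a log2 fold change of 1.48 ± 0.15 (SE, adjusted p = 1.57e-05) and 1.75 without scaling (adjusted p = 1.59e-05). It was the only one of the 10 past a 3-fold difference of means at MII, a rule that took means under 1 FPKM as 1 FPKM and that 8.82% of all genes passed. In growing oocytes no member passed that rule (4.52% of all genes did), with Ccnb3 just short of it at 2.99-fold lower, and in GV oocytes none did (4.66%). Cdc25b overlaps the 5′ end of Spef1 on the opposite strand by 334 bases, and Spef1 was at most 0.393 FPKM in any library.

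Cdk1 (chr10:68799383-68815686 in mm9) was under 1 FPKM in WT MII oocytes, at 0.346 and 0.144 FPKM, and was at 2.14 and 1.20 FPKM in Zar1/2-null MII oocytes. Both Zar1/2-null libraries were above 1 FPKM and both WT libraries below it. The ratio of means was 6.81, and 1.67 with the WT mean set to 1 FPKM. The log2 fold change was 1.08 ± 0.21 (SE, adjusted p = 0.00228) and 1.79 without scaling (adjusted p = 5.05e-05). These levels were low in both genotypes, and with no read counts in the table their counting error is not known.

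The cyclin B transcripts did not pass the test at MII. Ccnb1 was at 360 and 328 FPKM in WT and 343 and 341 FPKM in Zar1/2-null oocytes (adjusted p = 1), and its log2 fold change had an SE of 0.21. Ccnb3 was at 4.02 and 6.43 FPKM against 4.80 and 6.03 FPKM (adjusted p = 0.895). Ccnb2 was at 57.3 and 56.9 FPKM against 70.2 and 69.9 FPKM, without overlap (adjusted p = 0.145). Wee2 (74.0 and 73.9 FPKM against 101 and 98.8 FPKM, adjusted p = 0.128) and Pkmyt1 (1.88 and 2.29 FPKM against 3.04 and 3.66 FPKM, adjusted p = 0.0988) also lay above WT in both libraries without passing. Cdc25a (1.92 and 2.97 FPKM against 2.42 and 2.07 FPKM), Cdc25c (0.428 and 0.229 FPKM against 0.278 and 0.339 FPKM) and Wee1 (0.143 and 0.286 FPKM against 0.222 and 0.298 FPKM) overlapped.

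**Figure D2:**
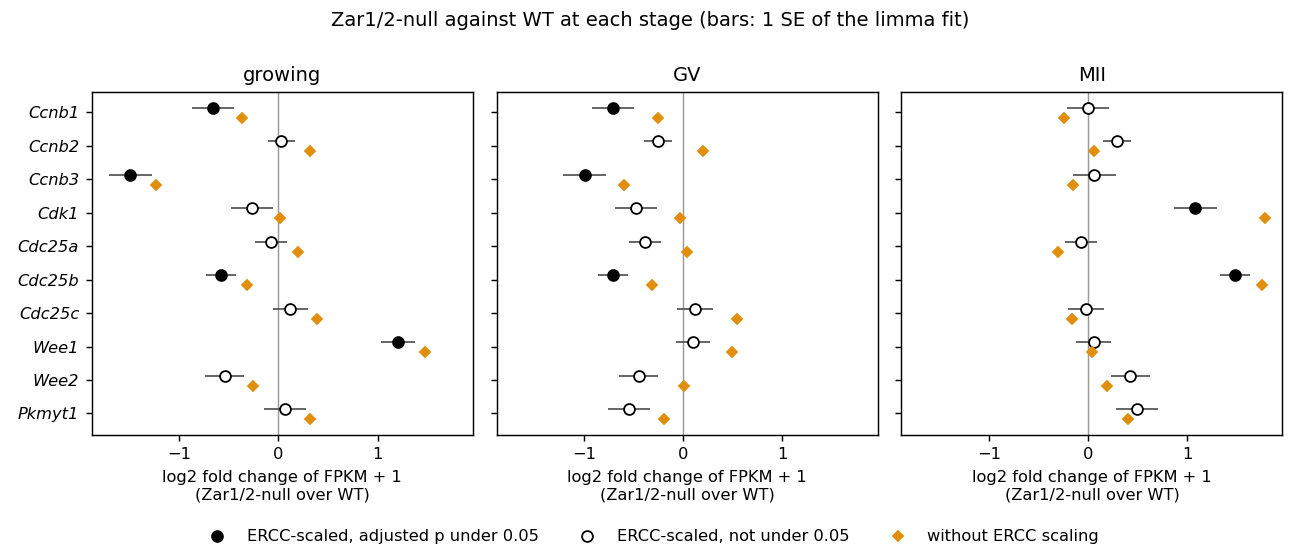
Log2 fold change of FPKM + 1 (x axis) of Zar1/2-null over WT for each switch gene (y axis) in growing, GV and MII oocytes; circles are the ERCC-scaled limma fit with bars of 1 SE, filled where the adjusted p was under 0.05, and orange diamonds are the fit without ERCC scaling. Ccnb3 at -1.49 and Wee1 at 1.20 in growing oocytes and Cdk1 at 1.08 and Cdc25b at 1.48 in MII oocytes stand far from 0 on both scales.

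The share of each phosphatase within the Cdc25 transcripts does not depend on the ERCC factor, because it is taken within a library. In WT growing oocytes Cdc25a, Cdc25b and Cdc25c made up 34.0%, 34.2% and 31.8% of the summed Cdc25 FPKM on average. By MII the WT sum was led by Cdc25a at 60.2% and 68.5%, with Cdc25b at 26.4% and 26.2%. In Zar1/2-null MII oocytes Cdc25b led instead, at 63.9% and 64.2%, and Cdc25a was at 32.4% and 30.8%. The Cdc25b share was lower in Zar1/2-null than in WT libraries at the earlier stages, at 26.9% and 20.9% against 31.4% and 33.3% in GV oocytes and at 24.2% and 25.4% against 31.5% and 37.0% in growing oocytes. The genotypes did not overlap at any of the 3 stages.

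**Figure D3:**
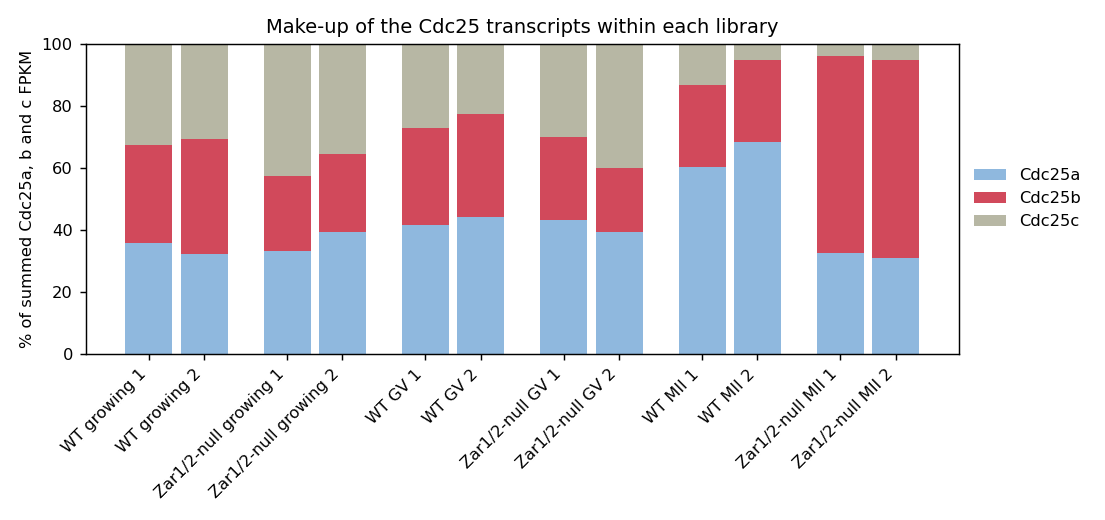
Percent of the summed Cdc25a, Cdc25b and Cdc25c FPKM (y axis) taken by each gene in each of the 12 libraries (x axis, grouped by genotype and stage), as stacked bars from 0 to 100%. The Cdc25b part is 63.9% and 64.2% in the Zar1/2-null MII libraries and 20.9% to 37.0% in all others.

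Other ratios within a library set the antagonists side by side. The Wee2 to Wee1 ratio was 46.8 and 43.9 in WT growing oocytes and 14.8 and 10.7 in Zar1/2-null growing oocytes, so Wee2 exceeded Wee1 in both genotypes but by less in Zar1/2-null oocytes. The ratio of Ccnb2 to Ccnb3 was 7.67 and 8.06 against 22.0 and 26.6. Wee2 over Ccnb1, the main inhibitory kinase over the main activating cyclin, was 0.335 and 0.325 in WT growing oocytes, 0.291 and 0.301 in WT GV oocytes and 0.205 and 0.225 in WT MII oocytes. In Zar1/2-null oocytes it was 0.335 and 0.381, then 0.344 and 0.364, then 0.293 and 0.290. The genotypes were apart at GV and at MII, with the Zar1/2-null ratio higher, and met at 0.335 in growing oocytes. The summed FPKM of Wee1, Wee2 and Pkmyt1 over that of the Cdc25 genes went the other way at MII. It was 23.8 and 17.6 in WT and 13.9 and 15.3 in Zar1/2-null MII oocytes. In growing oocytes it was 8.39 and 7.82 against 7.32 and 6.03, and at GV the genotypes overlapped. With 2 libraries a group, an exact permutation test cannot give a p below 0.333, and none was run on these ratios.

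Growth from the growing to the GV stage was compared within each genotype. In WT oocytes Ccnb2, Ccnb3, Cdc25b, Cdc25c, Wee1 and Wee2 fell, with log2 fold changes between -0.76 (Wee1) and -0.45 (Cdc25b), while Ccnb1, Cdk1, Cdc25a and Pkmyt1 did not pass. The WT GV libraries of all 10 were below the growing libraries, as were those of 59.5% of all genes. Of all genes tested, 28.7% were called lower, against 6 of 10 here. Without ERCC scaling none of the 10 was called, while of the 11502 genes 421 were called higher and 372 lower. The median log2 fold change over all genes moved from -0.29 to 0.02. Cdc25b was called only just (adjusted p = 0.0425), and the number called was 0 without WT growing replicate 2, 1 without WT GV replicate 2 and 3 without WT growing replicate 1. Cdc25b also lost its call in 4 fits that left out a Zar1/2-null growing or MII library and in that without WT GV replicate 1 (adjusted p up to 0.268).

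In Zar1/2-null oocytes 8 of 10 fell from the growing to the GV stage, the exceptions being Ccnb3 (adjusted p = 0.325) and Cdc25a (adjusted p = 0.0656). The background was 55.9% called lower. Wee1 fell most, from 18.2 and 20.2 FPKM to 5.68 and 3.58 FPKM, which is 24.1% of the growing level (log2 fold change -1.87 ± 0.17 SE, adjusted p = 1.24e-05), and it was the only one of the 8 still called without ERCC scaling (-1.42, adjusted p = 0.00166). Pkmyt1 was next at -0.96 ± 0.21 (SE, adjusted p = 0.00247). The calls of Ccnb1, Cdk1 and Wee2 were lost without replicate 1 of the Zar1/2-null growing or GV libraries (adjusted p up to 0.224), and that of Cdc25c without the latter (0.0564). Wee1 was also the only gene of the 10 whose fall differed between genotypes, by -1.11 ± 0.24 (SE, adjusted p = 0.0165), against 13.9% of all genes called (11.3% lower). That difference was lost without scaling (-0.99, adjusted p = 0.136), and without WT growing replicate 1 or Zar1/2-null growing replicate 2 (adjusted p up to 0.0593).

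Between GV and MII oocytes the ERCC-scaled level of most transcripts dropped, and the 10 genes differed in how much was left. In WT oocytes all 10 were called lower, as were 93.4% of all genes tested, so the calls say little about these genes. The level at MII as a share of the level at GV differed among them. Among the 5425 genes that averaged 5 FPKM or more in the GV oocytes of both genotypes, the median gene was left at 18.2% of its GV level. Ccnb1 was left at 47.3%, Ccnb2 at 38.3%, Pkmyt1 at 37.0%, Wee2 at 34.4% and Ccnb3 at 31.9%, all above that median. Cdk1 was left at 0.359%, Cdc25c at 3.87%, Wee1 at 5.12%, Cdc25b at 8.96% and Cdc25a at 16.7%. Wee1 and Pkmyt1 were below 5 FPKM at GV in at least 1 genotype and were not part of the 5425. Even the highest ratio between single libraries of the second set, 20.5% for Cdc25a, lay below the lowest of the first, 22.1% for Ccnb3.

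Leaving out the ERCC factor multiplies the ratio of every gene by nearly the same number. The same order of the sets by group means (at least 108% against at most 56.1% left) is therefore no test of the split. The direction of change did depend on the scaling. Without ERCC scaling Ccnb1 was called higher at MII than at GV in WT oocytes (log2 fold change 0.69, adjusted p = 0.00181), as was Ccnb2 (0.37, adjusted p = 0.0121), and Ccnb3, Wee2 and Pkmyt1 were not called. Cdk1, Cdc25a, Cdc25b, Cdc25c and Wee1 were still called lower, with log2 fold changes from -5.45 (Cdk1) to -0.80 (Cdc25a). Within the libraries, Ccnb1 over Cdk1 went from 10.4 and 11.0 in WT GV oocytes to 1040 and 2286 in WT MII oocytes. By MII the kinase itself was therefore among the least abundant of the 10 transcripts in WT, and its libraries overlapped those of Cdc25c and Wee1. The median log2 fold change of all genes was -1.28 with and -0.43 without scaling.

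In Zar1/2-null oocytes the median gene was left at 36.7% of its GV level. Cdk1, Cdc25a, Cdc25b, Cdc25c, Wee1, Wee2 and Ccnb2 fell, which is 7 of 10 against 68.7% of all genes, and Ccnb1 (adjusted p = 0.145), Ccnb3 (adjusted p = 0.0861) and Pkmyt1 (adjusted p = 0.789) did not pass. Cdk1 was left at 3.46%, Cdc25c at 3.28%, Wee1 at 5.61% and Cdc25a at 20.4%. Pkmyt1 was left at 92.9%, Ccnb1 at 76.7%, Cdc25b at 71.4%, Ccnb3 at 69.9%, Wee2 at 62.9% and Ccnb2 at 56.2%. Cdc25b thus stood among the genes with little left in WT and among those with much left in Zar1/2-null oocytes. Its fall was called only with ERCC scaling (log2 fold change -0.41, adjusted p = 0.0312). Without scaling Cdc25b was called higher at MII (0.54, adjusted p = 0.0294), as were Ccnb1, Wee2 and Pkmyt1. With only the compared groups in the fit, the falls of Cdc25b (adjusted p = 0.0800) and Wee2 (0.0567) were not called. The fall of Cdc25b was not called without Zar1/2-null GV replicate 1 or either Zar1/2-null MII library (adjusted p up to 0.149), and that of Wee2 without replicate 2 of either group (up to 0.118).

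The difference between the genotypes in the change from GV to MII was tested directly. It was called for 5 of 10, each with a smaller fall in Zar1/2-null oocytes, against 33.9% of all genes called in that direction. Cdc25b differed by 2.19 ± 0.21 on the log2 scale (SE, adjusted p = 1.65e-05), and by 2.07 without ERCC scaling (adjusted p = 0.000168). Cdk1 differed by 1.56 ± 0.30 (SE, adjusted p = 0.00261), and by 1.82 without scaling (adjusted p = 0.00147). Both were called with any single library left out. Ccnb3 (1.06, adjusted p = 0.0209), Pkmyt1 (1.04, adjusted p = 0.0200) and Wee2 (0.87, adjusted p = 0.0318) were called with scaling only, and each lost the call when single libraries were left out. For Ccnb3 these were WT GV and WT MII replicate 1 and Zar1/2-null GV and MII replicate 2 (adjusted p up to 0.0900), and for Pkmyt1 WT GV, WT MII and Zar1/2-null GV replicate 1 and Zar1/2-null MII replicate 2 (up to 0.0770). For Wee2 they were replicate 1 of both GV groups and all 4 MII libraries (up to 0.119). Over all genes the median of this difference was 0.48 with scaling and 0.03 without. Pkmyt1 shares 544 bases with Paqr4 on the opposite strand (1.09 to 6.81 FPKM), and the reads of that stretch cannot be told apart. For the other 5 genes the difference did not pass. Ccnb2 (adjusted p = 0.0524) and Ccnb1 (0.0904) came nearest, and both were called with averaged ERCC factors (0.0164 and 0.0239) but not without scaling (0.596 and 0.991). Cdc25a, Cdc25c and Wee1 were farther off (adjusted p = 0.305, 0.692 and 0.911).

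**Figure D4:**
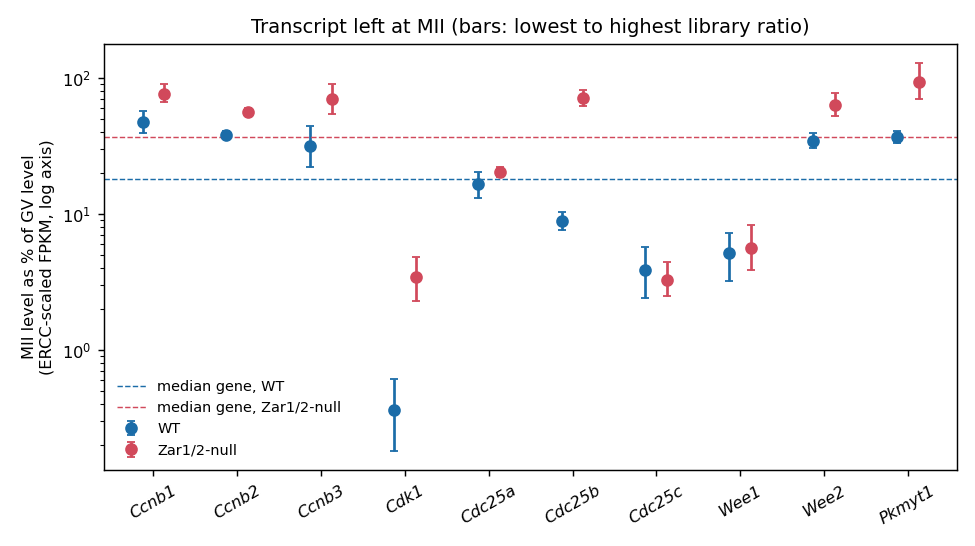
MII level as percent of the GV level (log axis) of each switch gene, from ERCC-scaled mean FPKM, in WT (blue) and Zar1/2-null (red) oocytes; bars run from the lowest to the highest ratio between single libraries, and dashed lines mark the median of 5425 genes (18.2% in WT, 36.7% in Zar1/2-null). Cdc25b moves from 8.96% in WT, below the median gene, to 71.4% in Zar1/2-null oocytes, above it.

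The 3′ ends were searched for the cytoplasmic polyadenylation element, spelled TTTTAT or TTTTAAT on the transcript strand, because this motif marks transcripts whose tails can be extended during maturation. In each gene's coding transcript with the longest 3′ UTR (Gencode vM1 on the NCBIM37 assembly, the mm9 build), the last 200 bases of the 3′ UTR held it in Ccnb1, Ccnb2, Ccnb3 and Wee2. They did not in Cdk1 and Cdc25a, whose 3′ UTRs held 1 and 6 matches farther upstream, nor in Cdc25b, Cdc25c and Pkmyt1, whose whole 3′ UTRs held none, and the annotation gives no 3′ UTR for Wee1. Of the 10193 tested genes with a 3′ UTR of at least 100 bases, 29.5% held the motif in that window, against 4 of the 9 switch genes searched. The window was chosen after seeing the data and sets which genes count, since over whole 3′ UTRs Cdk1 and Cdc25a hold the motif as well. The stretches around the motif are printed below with the element in capitals, and with the AATAAA cleavage signal in capitals where it falls in the stretch, to show the element in its context.
Ccnb1: tctcatttgctgTTTTAATttatacatctg
Ccnb2: atcctgtatgtaTTTTATtctagtttacat
Ccnb3: tcttgaaattacTTTTATgaaagaagagaa
Wee2: TTTTAATccagatcattgtaAATAAAgatt

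All 4 stretches are exonic and lie in the 3′ UTR. That of Ccnb1 is at chr13:101548731-101548760 on the minus strand, with the element starting 144 bases from the transcript's end. The Ccnb2 stretch is at chr9:70255667-70255696 (minus strand, 189 bases), the Ccnb3 stretch at chrX:6556828-6556857 (minus strand, 68 bases) and the Wee2 stretch at chr6:40416767-40416796 (plus strand, 46 bases). Wee2 held a further element starting 18 bases from its end, between the AATAAA and the end. The 4 genes with the motif were left at 31.9% to 47.3% of their GV level in WT MII oocytes, and the 5 searched genes without it in that window at 0.359% to 37.0%, among them Cdk1 and Cdc25a with matches upstream. Across genes, the 1470 with the motif had a median of 34.7% (quartiles 14.4% and 51.7%) and the 3446 without it 14.7% (quartiles 4.73% and 37.2%). In Zar1/2-null oocytes these medians were 51.8% and 32.5%. The ranges overlap widely, and the values describe the annotated ends, not the ends used in oocytes.

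Other genes acting on the switch were counted from a list of 42, of which 40 were tested. In Zar1/2-null growing oocytes 4 were higher and 6 lower than in WT, in GV oocytes 1 and 18, and in MII oocytes 6 and 3. Of all genes tested, 10.6% were called higher and 24.4% lower in growing, 2.83% and 40.6% in GV, and 21.5% and 10.3% in MII oocytes, so the counts of partners are near or below the background. Without ERCC scaling the partner counts were 5 and 3, 1 and 4, and 4 and 16, so most partner calls at MII were then lower. The 11502 genes gave 1711 and 1412, 827 and 1554, and 2831 and 2694 in the same unscaled fits. The tilt of the partners at MII was therefore not seen over all genes.

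Of the 3 largest partner changes in growing oocytes, those of Ccne1 and Ppp2cb were higher in Zar1/2-null libraries and that of Ccnh was lower. Ccne1, the cyclin E1 that partners CDK2, was at 8.0 and 10.7 FPKM against 3.15 and 2.90 FPKM (log2 fold change 1.35, adjusted p = 0.00179). Ppp2cb, a catalytic subunit of the phosphatase PP2A that opposes CDK1, was at 3.48 and 4.94 FPKM against 1.36 and 1.04 FPKM (1.23, adjusted p = 0.000156). Cdk2 (0.78) and Fzr1 (0.82) were the other partners called higher, and these 4 were also called higher without scaling. Ppp2ca, the other catalytic subunit of PP2A, was far more abundant than Ppp2cb and was not called. It was at 45.7 and 41.4 FPKM against 43.8 and 44.2 FPKM (log2 fold change -0.02, adjusted p = 0.951). All 3 subunits of the CDK-activating kinase, which CDK1 needs, were lower in growing Zar1/2-null oocytes, with Ccnh, its cyclin, at 26.6 and 20.9 FPKM against 52.8 and 57.1 FPKM (log2 fold change -1.19, adjusted p = 0.000383). Without scaling Ccnh and Cdk7 were still called lower and Mnat1 was not (adjusted p = 0.0961). In GV oocytes 7 of 13 kinases and adaptors that act on CDC25 or WEE were lower, against 40.6% of all genes. They were led by Ywhag, a 14-3-3 protein of the family that sequesters CDC25, at 13.1 and 11.9 FPKM against 43.9 and 43.5 FPKM (-1.73, adjusted p = 2.35e-05). Of these 7 Ywhag alone was called without scaling (-1.32, adjusted p = 0.000614). Ywhaz, Ywhae and Ywhaq of the same family were more abundant in WT GV oocytes (387 and 306, 302 and 248, and 231 and 162 FPKM). Without scaling their log2 fold changes were -0.01, -0.01 and 0.24, and none was called. Next in size after Ywhag among the partners at GV were Cdk2 and the phosphatase Cdc14b, both also called lower without scaling. Cdk2 was at 1.40 and 2.15 FPKM against 5.95 and 4.94 FPKM (-1.23, adjusted p = 0.000312). Cdc14b was at 9.17 and 13.4 FPKM against 31.3 and 21.5 FPKM (-1.16, adjusted p = 0.00133). In MII oocytes both activators of the anaphase-promoting complex, which marks cyclin B for destruction, were higher with and without scaling. Fzr1 was at 8.43 and 9.77 FPKM against 0.694 and 1.17 FPKM (2.39, adjusted p = 3.25e-06), and Cdc20 at 65.4 and 60.8 FPKM against 28.5 and 31.7 FPKM (1.05, adjusted p = 0.00493).

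Plk1, a kinase that activates CDC25, was at 14.0 and 15.9 FPKM in WT and 15.9 and 19.2 FPKM in Zar1/2-null MII oocytes and did not pass the test at any stage (adjusted p = 0.532, 0.397 and 0.462). Cks2, the CDK1 subunit, was at 898 and 734 FPKM against 745 and 672 FPKM at MII. It was more abundant per length than any of the 10 in MII oocytes. Mastl, the Greatwall kinase that restrains the phosphatase opposing CDK1, was at 17.7 and 22.8 FPKM against 21.2 and 21.3 FPKM, and Fbxo43, which encodes the APC inhibitor EMI2, at 15.0 and 15.7 FPKM against 20.2 and 21.9 FPKM (adjusted p = 0.0926). Neither was called at any stage.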

How the data were processed

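The authors trimmed the reads, mapped them to mm9 with TopHat2 2.1.1, kept uniquely mapped reads and computed FPKM with Cufflinks 2.2.1; strand was not recorded. The deposited table holds FPKM multiplied by an ERCC factor, without read counts, which leaves the counting error unknown, and 33.5% of a library's values on average are listed at 0. The factors were recovered by finding the divisor that returns the values to 6 significant digits, and lie near the ratio of spike-in percentages, WT growing library of the same replicate number over the library itself.

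Libraries were grouped by genotype and stage from the labels. limma 3.58.1 (R 4.3.3) was fitted to log2(FPKM + 1), where the added 1 FPKM understates changes of low genes, over all 12 libraries with 1 term per group and eBayes with an intensity trend. The 11502 genes that reached 1 FPKM in any library were tested, and p-values adjusted by Benjamini-Hochberg over them. On simulated data with 200 changed genes the fit was checked. The 10 genes and the lists of partners and markers were chosen with earlier results of these data known. Genes that could be named were the 10, Zar1, Zar1l, the 3 partners with the largest called change per comparison, Cks2, Plk1, Cdc20, Mastl, Fbxo43 and the genes most correlated with each member. Mnat1, Ppp2ca, Ywhae and Ywhaz, outside this rule, were named after their values were seen. The 3′ end window was chosen after seeing the data. The alternatives tried were values without the ERCC factor, median scaling, averaged factors, other pseudocounts, floors and filters, geometric means, a replicate block, only the groups compared, eBayes without a trend, and leaving out each library. The study's translation and protein experiments were not analysed here.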

Additional observations from a re-analysis of the deposited data

Results flagged for a closer look

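The change between 2 stages differed between the genotypes, by the limma interaction term, for 6 of the 10 switch genes and for both targeted genes. Of the 6, 1 was called from growing to GV, against 13.9% of all genes tested. The other 5 were called higher from GV to MII, against 33.9% of all genes called in that direction. Each value is the change in Zar1/2-null oocytes minus the change in WT oocytes on the log2(FPKM + 1) scale. From growing to GV oocytes the value was -1.11 for Wee1, which fell in both genotypes and by more in Zar1/2-null oocytes. From GV to MII oocytes it was 2.19 for Cdc25b, 1.56 for Cdk1, 1.06 for Ccnb3, 1.04 for Pkmyt1 and 0.87 for Wee2. Those of Cdc25b and Cdk1 were called with and without ERCC scaling, and those of Wee1, Ccnb3, Pkmyt1 and Wee2 with scaling only. For the targeted genes it was 2.66 for Zar1 and 3.46 for Zar1l. Zar1l went from 20.9 and 19.6 FPKM in Zar1/2-null GV oocytes to 1.36 and 1.01 FPKM at MII, and from 533 and 504 FPKM to 3.13 and 4.72 FPKM in WT. Pkmyt1 overlaps Paqr4 on the opposite strand by 544 bases, and Paqr4 was listed at 1.09 to 6.81 FPKM, so reads from the shared stretch cannot be told apart between them.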

How the results depend on the processing

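Of the 90 results of the 10 genes over 9 comparisons, 46 were called and 44 were not. For the called results, direction changed only under another scaling. In WT MII against GV oocytes the log2 fold change without ERCC scaling was 0.69 for Ccnb1, 0.37 for Ccnb2, 0.0733 for Ccnb3, 0.23 for Wee2 and 0.28 for Pkmyt1, and with median scaling 1.33, 1.02, 0.69, 0.87 and 0.87. In Zar1/2-null MII against GV oocytes it was 0.23 for Ccnb2, 0.54 for Cdc25b and 0.41 for Wee2 without scaling and 0.73, 1.01 and 0.91 with median scaling. In Zar1/2-null GV against growing oocytes median scaling gave 0.0649 for Ccnb1, 0.0585 for Cdk1, 0.0190 for Cdc25b and 0.0492 for Wee2. Ccnb1, Ccnb3 and Pkmyt1, not called from GV to MII in Zar1/2-null oocytes, were called higher with median scaling (1.19, 0.99 and 1.34).

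The number of the 10 called, Zar1/2-null against WT, went from 4 to 2 in growing and from 3 to 0 in GV oocytes both without scaling and with median scaling, and to 5 in GV oocytes with averaged ERCC factors. From the growing to the GV stage it went in WT from 6 to 0 under both scalings and to 2 without a filter, and in Zar1/2-null oocytes from 8 to 1 under both scalings and to 5 without a filter or with only the groups compared. For the genotype difference in growth it went from 1 to 0 under both scalings, with a pseudocount of 0.1 FPKM, without a filter, with only genes averaging 5 FPKM or more and with only the groups compared. For that in maturation it went from 5 to 2 under both scalings and to 3 without a filter. Past 3-fold, growing oocytes went from 0 to 1 without scaling and with geometric means, and MII oocytes from 1 to 2 under both scalings and with a floor of 0.1 FPKM. The causes were not tested.

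Leaving out each library gave 2 to 5 called in growing, 2 to 5 in GV and 2 to 2 in MII oocytes for Zar1/2-null against WT, 0 to 6 for WT growth, 10 to 10 for WT maturation, 4 to 9 for Zar1/2-null growth, 5 to 7 for Zar1/2-null maturation, 0 to 1 and 2 to 6 for the genotype differences in growth and maturation, and 0 to 1, 0 to 0 and 1 to 1 past 3-fold in growing, GV and MII oocytes. Where that left a group with 1 library, it was taken to vary like the other groups.

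Over genes, the deviations of same-numbered libraries correlated above 0.1 in 4 of 15 pairs of groups (median r 0.0872). A correlation over genes takes out an offset shared by all genes of a library, so pairing through the ERCC factors was not tested. These factors are set within a replicate number, since both WT growing libraries have a factor of 1. With the replicate number as a block the counts were 5, 4 and 3 in growing, GV and MII oocytes for Zar1/2-null against WT, 6 and 10 for WT growth and maturation, 8 and 7 for the same in Zar1/2-null oocytes, and 1 and 6 for the genotype differences. It ended no call, and the 4 results it added were Wee2 in growing (adjusted p = 0.0487) and Pkmyt1 in GV (0.0145) and MII oocytes (0.0280) between genotypes, and the genotype difference of Ccnb2 in maturation (0.0394).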

Other observations

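For each member with a group mean of at least 10 FPKM, the genes whose levels followed it most closely were looked up by Pearson's r of log2(FPKM + 1) over the 12 libraries among the 4320 genes that averaged 10 FPKM or more. All genes of a library share its ERCC factor and most are lower at MII, and the values are given as a description. Cdk1 was followed by Glrx3 and Psmb6 (r of 0.999 each), Ccnb2 by Tspan3 (0.999) and Mcm6 (0.997), Cdc25a by Chaf1a and Eps15l1 (0.997 each) and Cdc25c by Trim71 and Zfand6 (0.997 each). Wee2 was followed by Sptlc1 (0.994) and Atp5b (0.993) and Wee1 by Kdm1b and Ikbkb (0.991 each). Ccnb1 was followed by Zfp60 and Skap2 (0.988 each), Cdc25b by Bap1 (0.994) and BC003266 (0.986), and Ccnb3 by Pld1 (0.976) and Glce (0.972). Pkmyt1 stayed below a group mean of 10 FPKM and was not looked up.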
